A study of Mus musculus with 6 samples.

Results

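The genes described here encode the nuclear-coded subunits of the last steps of the mitochondrial respiratory chain: complex III, cytochrome c, complex IV and the ATP synthase. They were chosen by symbol from the array's annotation, as genes on a transcript cluster with 1 gene symbol whose name starts with Uqcr, with Atp5, or with Cox followed by a digit from 4 to 8, and in addition Cyc1 and Cycs. A transcript cluster is the array's unit for 1 gene. The rule found 44 of the 19938 genes with such clusters: 9 of complex III, cytochrome c itself, 17 of complex IV and 17 of the ATP synthase. Expression was measured in heart tissue taken on postnatal day 14 from C57BL/6J mice that had been injected with ETX, or with the vehicle PBS (phosphate-buffered saline), over 1 week. There were 3 ETX hearts (replicates 6, 7 and 10) and 3 PBS hearts (replicates 3, 9 and 12), labelled biological replicates, with 1 Affymetrix array each. The labels do not spell out ETX, give no dose or sex and do not say whether the tissue held both atria and ventricles, and the number of arrays limits the precision.

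Complex III passes electrons from ubiquinol to cytochrome c, complex IV (cytochrome c oxidase) passes them from cytochrome c to oxygen, and the ATP synthase uses the proton gradient that both complexes build. Their core subunits are the same in all tissues, but several small subunits of complex IV come in tissue forms. In muscle and heart, subunits 6a, 7a and 8 have the muscle isoforms Cox6a2, Cox7a1 and Cox8b beside the general isoforms Cox6a1, Cox7a2 and Cox8a, and in rodents the muscle forms of 6a and 7a take a larger share in the heart around and after birth. Subunit 4 has a general form, Cox4i1, and a form best known from lung and from low oxygen, Cox4i2.

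The 10 cardiomyocyte markers set out for checking the tissue were at high levels, with mean log2 signals (RMA values, as deposited) of 12.15 to 12.28 in ETX hearts and 12.24 to 12.26 in PBS hearts. Lung transcripts stood apart in PBS replicates 3 and 9: the mean of 12 lung markers was 3.58 to 3.63 in ETX hearts and 3.49 to 6.84 in PBS hearts. Atrial markers (10 genes) ran from 6.24 to 7.19 in ETX hearts and from 5.88 to 7.62 in PBS hearts. Their mean was high in ETX replicates 6 and 7 and in PBS replicate 3. Nppa of this list was high in ETX replicate 10 as well. It was at 12.12, 12.48 and 11.89 in ETX hearts and at 12.05, 9.28 and 9.04 in PBS hearts (limma adjusted p = 0.14). Kcna5 went the other way, with a difference of -0.75 and overlap (limma adjusted p = 0.0914). Bmp10 was high in PBS replicate 3 alone, at 7.71, against 2.55 to 2.94 in the other hearts. Of the 10 atrial markers 7 had a difference above 0 and 3 below. The mean of 9 brown fat markers was 4.74 to 5.12 in ETX hearts and 4.70 to 4.75 in PBS hearts, and its defining gene Ucp1 was at 5.72 in ETX replicate 6, against 3.57 to 3.77 in the 5 other hearts. Of this list 3 genes lay below the filter on low values, which is the lower quartile of the gene means. Of the 6 tested, 4 had a log2 difference, ETX minus PBS, above 0 and 2 below. Cidea, a lipid droplet protein, passed the test, with a difference of 0.47 (limma adjusted p = 0.0266). Cidea was at 8.07, 8.30 and 8.28 in ETX hearts and at 7.79, 7.71 and 7.72 in PBS hearts. It was thus lowest of the ETX hearts in replicate 6, where Ucp1 was highest. Skeletal muscle markers (12 genes) had means of 4.60 to 4.68 in ETX hearts and 4.55 to 4.66 in PBS hearts. Of the 9 tested, 7 lay above 0 and 2 below. Ckm was at 11.19, 11.06 and 11.06 in ETX hearts and at 10.80, 10.74 and 10.87 in PBS hearts. It lay above PBS without overlap (difference 0.30, limma adjusted p = 0.0588). Tnni2, the gene of the list with the next highest signal, was at 6.00, 5.92 and 5.76 in ETX hearts and at 6.08, 6.23 and 6.04 in PBS hearts. It lay below PBS without overlap (difference -0.22, limma adjusted p = 0.188). The level of Ckm was thus far above that of the other genes of the list, and the cell type it came from was not tested. Markers of pericytes and smooth muscle (10 genes) had means of 8.02 to 8.20 in ETX hearts and 8.21 to 8.29 in PBS hearts, and of these Vtn fell by 0.91 (limma adjusted p = 0.00487). Of the 10, 8 lay below 0 and 2 above. For 4 of them, Vtn included, all ETX hearts lay below all PBS hearts (40%, against 16.1% of all genes tested). In bulk tissue, fewer cells of a type and less RNA per cell cannot be told apart.

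Most subunit genes differed little between ETX and PBS hearts, and the 2 that differed most were the muscle isoforms of complex IV subunits 7a and 6a, both lower in the ETX hearts. Of the 44 genes, 43 passed the filter on low values and were tested, and 0 of them passed an adjusted p of 0.05 (limma, Benjamini-Hochberg over 14953 genes tested). Of all genes tested 3.56% passed. At an unadjusted p under 0.05 there were 4 subunit genes (Cox7a1, Cox6a2, Atp5j and Cox7a2), against 21.9% of all genes tested. ETX and PBS values did not overlap for 8 of the 43 genes, or 18.6%, where 27.7% of all genes tested had no overlap. In 5 of the 8 the ETX hearts lay above (11.6% of all genes tested did), and in 3 below (16.1%).

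Of the 43 genes 17 had a difference above 0 and 26 below: 2 and 7 in complex III, 7 and 9 in complex IV, 7 and 10 in the ATP synthase. Above 0 were thus 39.5%, against 48.4% of all genes tested and 31.7% of the 120 genes with a mean of at least 11. Those 120 genes include 25 of the subunit genes, of which 28% lay above 0, and the other subunit genes had lower means. The median log2 difference was -0.017 for complex III, -0.0083 for complex IV and -0.0051 for the ATP synthase. It was -0.0063 over all genes tested and -0.038 over those 120 genes. The medians of the 3 complexes are close to 0 and each turned sign with a further quantile normalization. The sizes were small as well: 33 of the 43 genes differed by less than 0.1 on the log2 scale and 41 by less than 0.2. The median size without sign was 0.047, against 0.10 over all genes tested and 0.077 over the 120 genes with a mean of at least 11. Over the 25 subunit genes among those 120 it was 0.049. A p above the threshold does not show equality, so the intervals matter: the 95% limma interval lay inside -0.25 to 0.25 for 28 of the 43 genes and inside -0.35 to 0.35 for 40 of them.

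**Figure D1:**
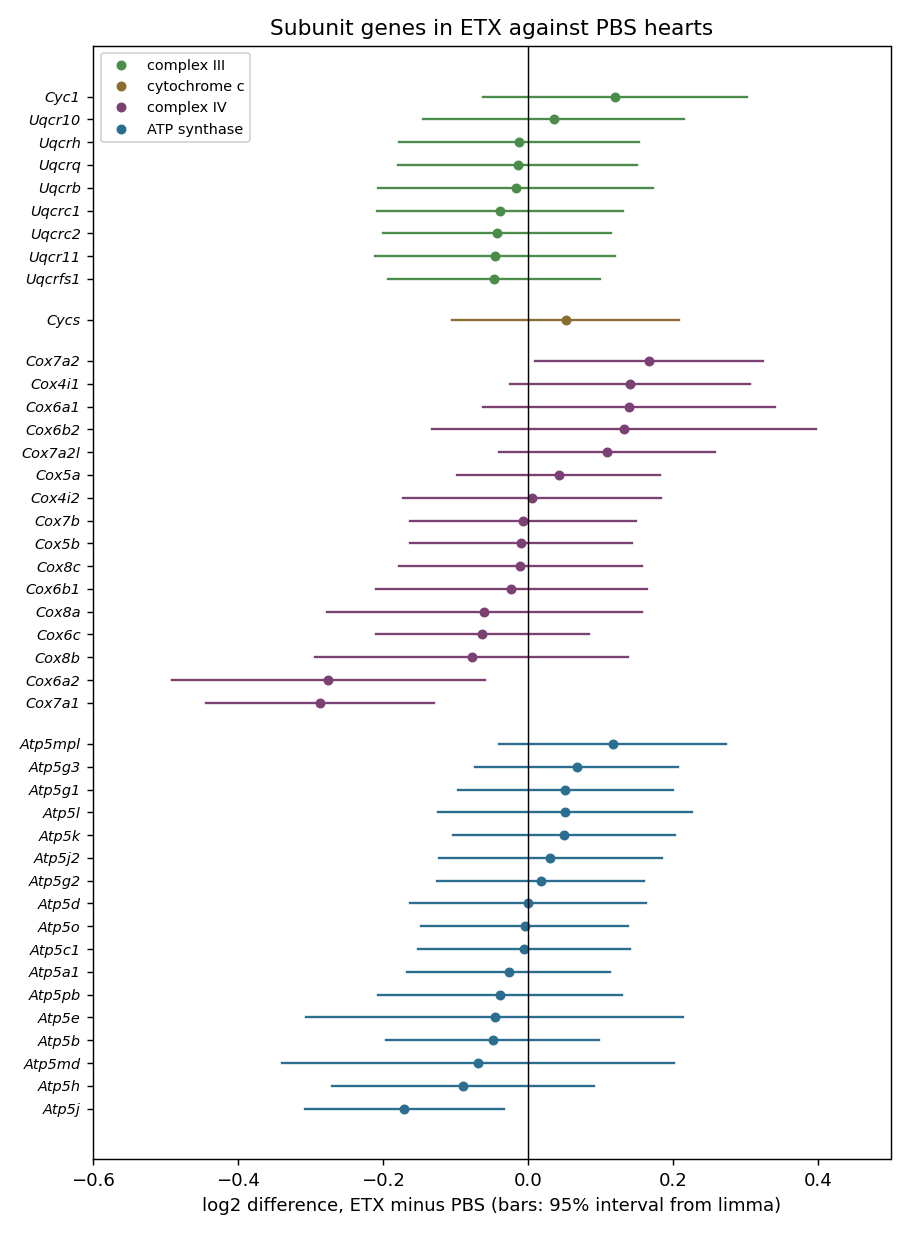
Log2 difference between ETX and PBS hearts (x axis) for each of the 43 tested subunit genes (y axis), coloured by complex, with the 95% interval from limma as bars. Cox7a1 at -0.29 and Cox6a2 at -0.28 lie farthest from 0.

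In complex III, no gene was without overlap between the groups, and the differences ran from -0.05 to 0.12. The core proteins Uqcrc1 and Uqcrc2, which form the matrix part of the complex, differed by -0.04 each. The Rieske iron-sulphur protein Uqcrfs1, an electron carrier, had values of 9.81, 9.86 and 9.79 in ETX hearts and 9.84, 9.92 and 9.84 in PBS hearts. Cyc1, the haem protein cytochrome c1 that hands electrons to cytochrome c, had the largest difference of the complex. Cyc1 was at 9.94, 9.84 and 9.77 in ETX hearts (replicates 6, 7 and 10) and at 9.80, 9.62 and 9.78 in PBS hearts (replicates 3, 9 and 12). ETX replicate 10 lay inside the PBS range. The difference of 0.12 (95% interval -0.06 to 0.30) did not pass (limma adjusted p = 0.42). It was 0.073 without ETX replicate 6, 0.065 without PBS replicate 9 and 0.05 with lung markers as a covariate.

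The small subunits Uqcrb, Uqcrq, Uqcrh, Uqcr10 and Uqcr11 differed by -0.05 to 0.04. Cycs, the mobile cytochrome c, averaged 12.34 ± 0.03 in ETX hearts and 12.29 ± 0.08 in PBS hearts (SD, n = 3 each), with a limma adjusted p of 0.703.

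Complex IV held both the lowest and the highest differences of all 43 genes. Cox7a1, the muscle isoform of subunit 7a, was at 11.33, 11.17 and 11.23 in ETX hearts and at 11.55, 11.55 and 11.51 in PBS hearts. Every ETX heart lay below every PBS heart, and the PBS hearts spanned under 0.05. The log2 difference was -0.29 (95% interval -0.44 to -0.13), which is 1.22-fold lower in ETX, and did not pass (limma adjusted p = 0.0601). With 3 of the alternative settings it did pass, with a limma adjusted p of 0.0444 with arrays centred on their median, 0.0176 with a trended and robust variance and 0.033 with a stricter filter on dim genes. With each heart left out in turn the difference stayed between -0.33 and -0.25 and passed in 0 of 6 fits (limma adjusted p of 0.0903 to 0.189). Over all alternatives the limma adjusted p ran up to 0.605.

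Cox6a2, the muscle isoform of subunit 6a, was at 11.35, 11.09 and 11.23 in ETX hearts and at 11.64, 11.41 and 11.44 in PBS hearts. The groups did not overlap, but ETX replicate 6 came within 0.1 of the lowest PBS heart. The difference was -0.28 (95% interval -0.49 to -0.06), or 1.21-fold lower in ETX, with a limma adjusted p of 0.141. Among the 120 genes with a mean of at least 11, 4 others had a difference at or below that of Cox7a1. Cox8b, the muscle isoform of subunit 8, had overlapping groups, with 11.33, 11.02 and 11.12 in ETX hearts and 11.31, 11.14 and 11.25 in PBS hearts. Its difference was -0.08 (95% interval -0.29 to 0.14, limma adjusted p = 0.677). Leaving out ETX replicate 6 gave -0.16 and leaving out ETX replicate 7 gave -0.0085, and it was -0.04 without PBS replicate 3 and -0.13 without PBS replicate 9.

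The general partners of 7a and 6a lay on the other side of 0. Cox7a2, the general isoform of subunit 7a, was at 9.85, 9.76 and 9.67 in ETX hearts and at 9.59, 9.59 and 9.60 in PBS hearts. All ETX hearts lay above all PBS hearts. The difference of 0.17 (95% interval 0.01 to 0.32) was the largest above 0 among the subunit genes, and its limma adjusted p was 0.207. With PBS replicates 9 and 12 and ETX replicate 10 alone it was 0.08. Cox6a1, the general isoform of subunit 6a, was at 10.06, 9.94 and 9.90 in ETX hearts and at 9.98, 9.72 and 9.78 in PBS hearts, and the groups overlapped through PBS replicate 3. Its difference was 0.14 (95% interval -0.06 to 0.34, limma adjusted p = 0.4), with 0.09 without ETX replicate 6, 0.08 without PBS replicate 9 and 0.22 without PBS replicate 3. Cox8a, the general isoform of subunit 8, was at 9.28, 9.29 and 9.12 in ETX hearts and at 9.37, 9.39 and 9.11 in PBS hearts. The 2 highest values of Cox8a were those of the PBS hearts with lung transcripts. Its difference of -0.06 (limma adjusted p = 0.755) turned to 0.12 without those hearts, and with 1 heart left out it ran from -0.15 to -0.0055.

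**Figure D2:**
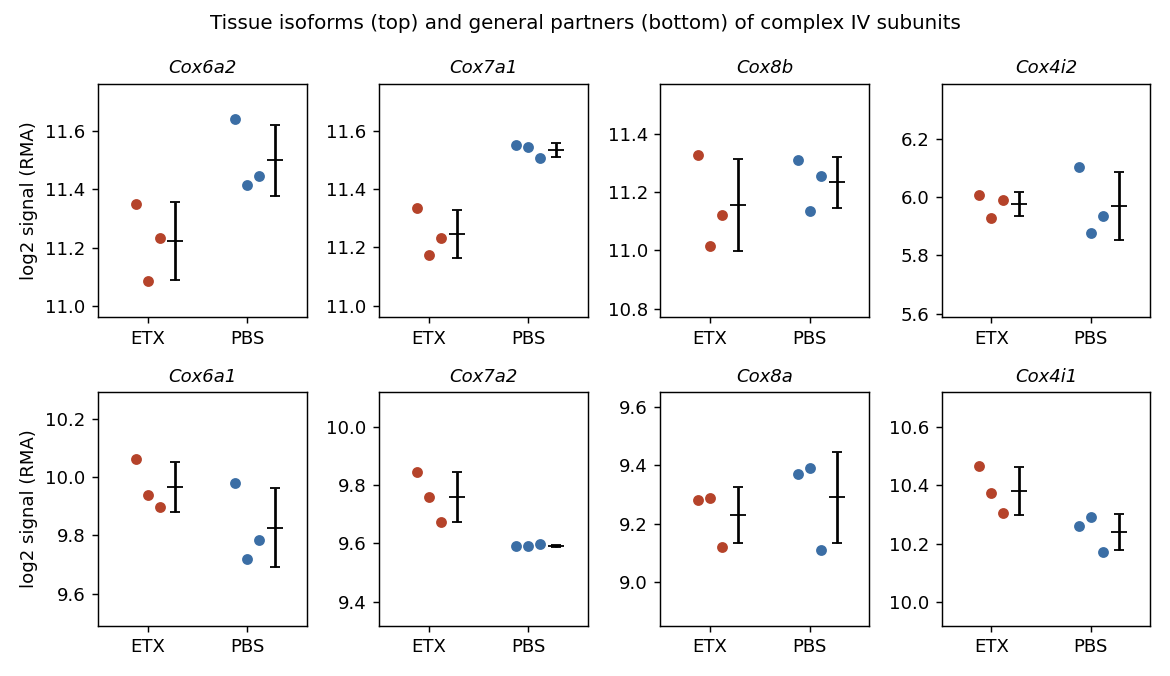
Log2 signal (y axis, each panel spanning 0.8) of tissue isoforms of complex IV subunits 6a, 7a, 8 and 4 in the top row and of their general partners below, for ETX and PBS hearts. Points are hearts and black bars are the mean ± SD of 3 hearts; Cox6a2 and Cox7a1 lie lower in every ETX heart, and Cox7a2 and Cox4i1 lie higher.

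A ratio of partner isoforms within a heart removes what both share, such as the amount of RNA on the array. Levels of different clusters cannot be set against each other, so each ratio was centred on its PBS mean. The log2 ratio of Cox7a1 to Cox7a2 was -0.45, -0.53 and -0.38 in ETX hearts and 0.02, 0.01 and -0.03 in PBS hearts. That of Cox6a2 to Cox6a1 was -0.38, -0.53 and -0.34 in ETX hearts and -0.01, 0.02 and -0.01 in PBS hearts. Both ratios were thus lower in all 3 ETX hearts, by 0.45 ± 0.07 for 7a and 0.42 ± 0.10 for 6a (SD of the ETX hearts, n = 3), which are ratios 1.37-fold and 1.33-fold lower. The PBS hearts had an SD of 0.03 for 7a and 0.02 for 6a. No p is given for these ratios, which combine genes named for their isoform type.

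The ratio of Cox8b to Cox8a did not part the groups, with 0.10, -0.22 and 0.06 in ETX hearts and -0.0044, -0.20 and 0.20 in PBS hearts. That of Cox4i2 to Cox4i1 averaged -0.14 ± 0.08 in ETX hearts and 0 ± 0.13 in PBS hearts, with overlap. Leaving out any 1 heart kept the mean difference of the 7a ratio between -0.49 and -0.42 and that of the 6a ratio between -0.46 and -0.36. Without ETX replicate 6, the heart with the high Ucp1 signal, they were -0.46 and -0.43. Without PBS replicates 3 and 9, the hearts with lung transcripts, they were -0.42 and -0.40. With PBS replicates 9 and 12 and ETX replicate 10 alone, the hearts with the lower means of atrial markers, they were -0.37 and -0.34. Of the 10 cardiomyocyte markers 0 passed, 9 lay below 0 and the median was -0.08. Of the 120 genes with a mean of at least 11, 82 lay below 0, with a median of -0.038. The groups did not overlap for 4 of the markers (40%), against 35.8% of those 120 genes and 27.7% of all genes tested. Tnni3, the adult troponin I of cardiomyocytes, differed by -0.23 (limma adjusted p = 0.142) and Mybpc3, a sarcomeric myosin-binding protein, by 0.30 (limma adjusted p = 0.0913), both without overlap. Mybpc3 was the 1 marker above 0, and Myh6, the adult myosin heavy chain, and Pln, the inhibitor of the calcium pump, also lay below PBS without overlap (-0.10 and -0.12). Their part in the isoform ratios was not tested.

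**Figure D3:**
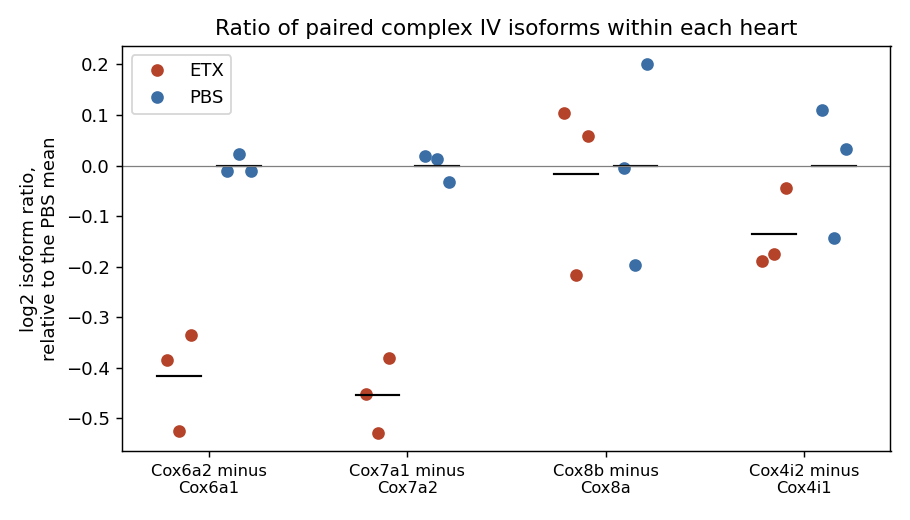
Log2 ratio of a tissue isoform to its general partner within each heart, relative to the mean of the PBS hearts (y axis), for 4 subunits of complex IV (x axis). Points are hearts and black lines are group means; the 6a and 7a ratios lie between -0.53 and -0.34 in ETX hearts and near 0 in PBS hearts, and the 8 and 4 ratios overlap.

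The other complex IV genes had differences between -0.06 and 0.14. Cox4i1, the common form of the largest nuclear-coded subunit, was at 10.47, 10.37 and 10.30 in ETX hearts and at 10.26, 10.29 and 10.17 in PBS hearts. The groups did not overlap but nearly touched, and the difference was 0.14 (95% interval -0.02 to 0.31, limma adjusted p = 0.3), or 0.07 with PBS replicates 9 and 12 and ETX replicate 10 alone. Cox4i2 was at 6.01, 5.93 and 5.99 in ETX hearts and at 6.10, 5.88 and 5.93 in PBS hearts, so the ETX hearts lay within the PBS range. Its difference of 0.0048 changed sign with several settings (limma adjusted p = 0.977). Cox7a2l, a relative of subunit 7a that helps to join complexes III and IV and is shortened in C57BL/6 mice, was at 9.32, 9.31 and 9.35 in ETX hearts and at 9.28, 9.22 and 9.15 in PBS hearts. Its ETX hearts all lay above the PBS hearts, by 0.11 on average (limma adjusted p = 0.369), or 0.17 without PBS replicates 3 and 9. A further cluster of Cox7a2l differed by 0.26.

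Cox5a, Cox5b and Cox6c differed by -0.06 to 0.04. The general forms of subunits with a testis isoform, Cox6b1 and Cox7b, differed by -0.02 and -0.01. The testis isoforms had low signals. Cox7b2 lay below the filter with 2.50 to 2.67 in all hearts, Cox8c was at 3.67 to 3.86, and Cox6b2 averaged 4.22 ± 0.15 in ETX hearts and 4.09 ± 0.20 in PBS hearts (SD, n = 3 each). With no detection call in these values, such signals give no reliable fold.

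The promoters of the 7a and 8 isoform pairs are shown because one pair parted the groups and the other did not, while both hold a muscle and a general gene. Each is the 250 bases before the start of the gene, from RefSeq, 5′ to 3′ along the gene, with CpG dinucleotides in capitals.
Cox7a1 (GRCm38.p6 chr7:30183921-30184170, plus strand): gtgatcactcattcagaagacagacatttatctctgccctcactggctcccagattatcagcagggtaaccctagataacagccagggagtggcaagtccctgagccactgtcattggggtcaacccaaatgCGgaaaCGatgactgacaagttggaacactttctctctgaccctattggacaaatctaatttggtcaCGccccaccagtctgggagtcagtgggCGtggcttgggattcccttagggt
Cox7a2 (GRCm38.p6 chr9:79759854-79760103, minus strand): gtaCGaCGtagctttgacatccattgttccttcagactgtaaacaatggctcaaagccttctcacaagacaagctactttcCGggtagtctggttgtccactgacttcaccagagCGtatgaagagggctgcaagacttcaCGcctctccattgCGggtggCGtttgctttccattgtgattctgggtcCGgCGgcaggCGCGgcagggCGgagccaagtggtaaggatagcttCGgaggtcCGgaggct
Cox8b (GRCm38.p6 chr7:140900447-140900696, minus strand): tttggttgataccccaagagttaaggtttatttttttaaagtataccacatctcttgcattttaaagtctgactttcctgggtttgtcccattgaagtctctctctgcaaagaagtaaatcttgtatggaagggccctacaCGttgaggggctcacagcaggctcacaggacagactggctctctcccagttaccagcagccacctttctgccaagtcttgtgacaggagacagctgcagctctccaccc
Cox8a (GRCm38.p6 chr19:7217617-7217866, minus strand): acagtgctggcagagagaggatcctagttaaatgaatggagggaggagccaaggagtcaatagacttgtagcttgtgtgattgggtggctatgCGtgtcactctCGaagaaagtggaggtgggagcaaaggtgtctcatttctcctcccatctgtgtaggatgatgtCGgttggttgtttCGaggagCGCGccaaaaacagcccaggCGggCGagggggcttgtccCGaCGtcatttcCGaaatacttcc

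The general genes had more CpG dinucleotides in this window than the muscle genes. There were 4 in Cox7a1 and 1 in Cox8b, against 14 in Cox7a2 and 11 in Cox8a, and the median over 32851 RefSeq mouse promoters was 6. In these 4 genes both pairs had the same order of CpG counts. Promoters were found for 33 of the 44 subunit genes, with a median of 14 CpG dinucleotides; where a gene had several, the one with the lowest coordinate was read. The motif CCGGAAG, the core of sites bound by ETS factors such as GABPA, was found on either strand in 8 of the 33, or 24.2%, against 6.91% of all promoters. TGCGCA, the core of NRF1 sites, was in 5 of them (15.2%, against 6.43%), and AAGGTCA, an ERR half-site, in 2 (6.06%, against 4.08%). CANNTG, the E-box, was in 60.6% of them, against 66.2% of all promoters, and TATTTAT, part of a MEF2 site, in 0 of the 33, against 5.17%. Of these 5 motifs the printed windows hold only the E-box, 1 in each. The window of Cox6a1, not printed, had 26 CpG dinucleotides, 1 CCGGAAG and 1 TGCGCA. A match or its lack describes these letters in this window only. CCGGAAG and TGCGCA each hold a CpG, of which the subunit promoters had a median of 14 and all promoters 6. The promoters were not matched for CpG, so whether the shares differ beyond CpG content was not tested.

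In the ATP synthase the differences ran from -0.17 to 0.12, and 12 of the 17 genes had an interval inside -0.25 to 0.25. Atp5j, coupling factor 6 of the peripheral stalk that holds the catalytic head still, was at 11.48, 11.43 and 11.46 in ETX hearts and at 11.64, 11.62 and 11.62 in PBS hearts. All ETX hearts lay below all PBS hearts, and the hearts of each group lay within 0.05 of each other. The difference was -0.17 (95% interval -0.31 to -0.03), or 1.13-fold lower, and did not pass (limma adjusted p = 0.148). With 1 heart left out it stayed between -0.18 and -0.16.

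Other parts of the stalk differed less, with Atp5h (subunit d) at -0.09 (-0.03 without PBS replicate 12, -0.05 without ETX replicate 7 and -0.22 without PBS replicates 3 and 9), Atp5pb (subunit b) at -0.04 and Atp5o (OSCP, at the top of the stalk) at -0.01. The catalytic head was flat: Atp5a1 and Atp5b, the subunits alpha and beta that make ATP, differed by -0.03 and -0.05, Atp5c1 and Atp5d, of the central stalk, by -0.01 and -0.000064, and Atp5e, also of the central stalk, by -0.05. Atp5a1 was at 12.25, 12.18 and 12.21 in ETX hearts and at 12.25, 12.22 and 12.25 in PBS hearts.

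The proton-carrying c ring is built from 1 mature protein encoded by 3 genes, all with differences above 0. Atp5g3 was at 11.68, 11.63 and 11.66 in ETX hearts and at 11.56, 11.61 and 11.60 in PBS hearts, with no overlap and a difference of 0.07 (limma adjusted p = 0.569). Atp5g1 and Atp5g2 differed by 0.05 and 0.02 with overlap. Of the small membrane subunits that help the enzyme to pair into dimers, Atp5j2, Atp5k and Atp5l differed by 0.03 to 0.05. Atp5mpl, a small proteolipid of the membrane part, was at 11.14, 11.10 and 11.15 in ETX hearts and at 10.93, 11.01 and 11.10 in PBS hearts. Its groups did not overlap, but PBS replicate 12 came within 0.01 of the lowest ETX heart. The difference was 0.12 (95% interval -0.04 to 0.27, limma adjusted p = 0.364). It was 0.08 without PBS replicate 3 and 0.03 without PBS replicates 3 and 9.

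**Figure D4:**
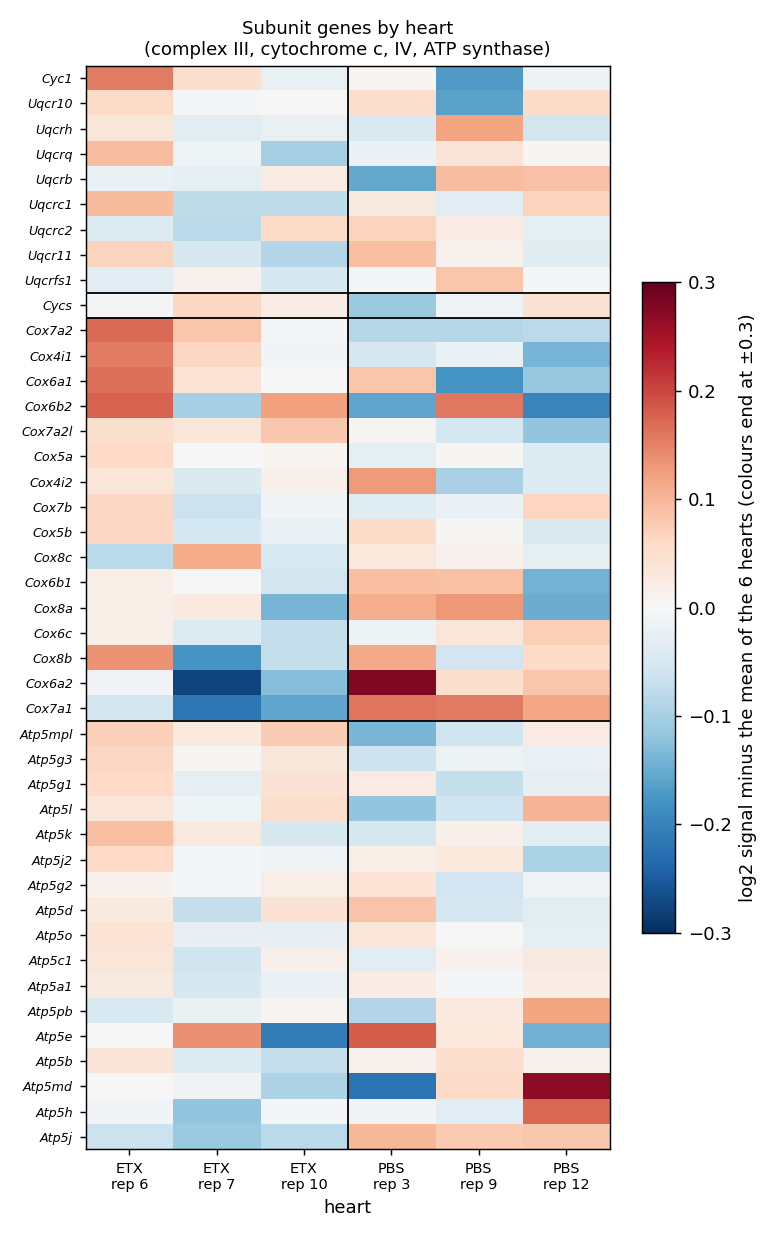
Log2 signal of the 43 tested subunit genes (rows, by complex) in each heart (columns), minus the gene's mean over the 6 hearts. Cox7a1, Cox6a2 and Atp5j are lower in the 3 ETX hearts, Cox7a2 and Cox4i1 are higher, and Atp5md varies among the PBS hearts, where replicate 3 is at 11.14 and replicate 12 at 11.63.

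The spread from the lowest to the highest of the 6 hearts had a median of 0.19 over the subunit genes, against 0.31 over all genes tested. Within ETX, replicate 6 was the highest heart for 29 of the 43 genes (67.4%), against 47.5% of the genes with a mean of at least 11. Replicate 7 was the lowest for 24 (55.8%, against 55.8%). The widest range within PBS was that of Atp5md (DAPIT, a small membrane subunit), at 11.36, 11.35 and 11.27 in ETX hearts and 11.14, 11.42 and 11.63 in PBS hearts. There the ETX hearts lay inside the PBS range.

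Several clusters were present for 13 of the 44 genes, many of which have processed copies in the genome. The cluster with the highest mean was used, and in 11 of the 13 genes all clusters had differences of 1 sign. The exceptions were Cox7b, with -0.01 and 0.01, and Cycs, of which a dim cluster differed by -0.23 while the one used differed by 0.05. Signals of near-identical copies cannot be separated on such clusters, so these genes are less certain than those with 1 cluster, among them Cox7a1, Cox7a2, Cox6a1, Cox6a2 and Atp5j.

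Among other genes of the pathway, the factors that assemble these complexes mostly had differences above 0, and 0 of them passed. The lists were complex III assembly (6 genes), complex IV assembly with its copper and haem delivery and regulators (22 of 26 measured) and ATP synthase assembly with its inhibitor (4 measured of 9 names, which include later names of subunits). Over these 32 genes, 26 lay above 0 (81.2%, against 48.4% of all genes tested). The median was 0.12, against -0.0063 over all genes tested and -0.0095 over the subunit genes. ETX and PBS values did not overlap for 9 of them (28.1%), all with ETX above PBS, where 11.6% of all genes tested were above without overlap. The median stayed between 0.09 and 0.15 under all alternative settings. From each list the 2 genes with the lowest p are described next, and Atpif1.

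Higd1a, a hypoxia-inducible regulator of complex IV, was at 7.65, 7.75 and 7.72 in ETX hearts and at 7.33, 7.42 and 7.50 in PBS hearts. Every ETX heart lay above every PBS heart, with a difference of 0.29 (95% interval 0.13 to 0.45, limma adjusted p = 0.0655). It passed with 3 alternative settings (limma adjusted p of 0.0314 to 0.0433) and in 0 of 6 fits without 1 heart (0.0832 to 0.199). The Higd1a difference was 0.208 with the mean of its clusters (limma adjusted p = 0.157) and 0.205 without PBS replicates 3 and 9. Cox15, which makes the haem A of complex IV, was at 7.37, 7.43 and 7.49 in ETX hearts and at 6.93, 7.12 and 7.34 in PBS hearts. Its groups did not overlap, though PBS replicate 12 was close to ETX replicate 6 (difference 0.30, limma adjusted p = 0.147). Its difference was 0.17 with lung markers as a covariate and 0.09 without PBS replicates 3 and 9. Atpaf2, a chaperone of the alpha subunit of the ATP synthase, was at 6.67, 6.71 and 6.83 in ETX hearts and at 6.58, 6.34 and 6.39 in PBS hearts, without overlap (difference 0.30, limma adjusted p = 0.1). Uqcc2, needed to make cytochrome b for complex III, differed by 0.29 (limma adjusted p = 0.156; 0.19 without PBS replicate 12 and 0.49 without PBS replicates 3 and 9), and Ttc19, which clears fragments of the Rieske protein from complex III, by 0.15 (0.25). Tmem70, which helps to build the c ring, differed by 0.12 with overlap (limma adjusted p = 0.445). Atpif1, the inhibitor of the ATP synthase, was at 11.58 ± 0.02 in ETX hearts and 11.59 ± 0.03 in PBS hearts (SD, n = 3 each).

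**Figure D5:**
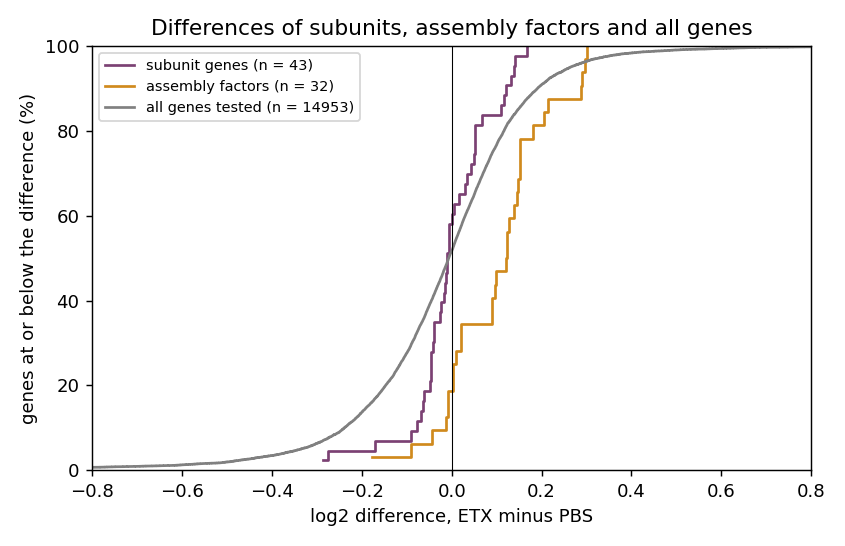
Percentage of genes (y axis) at or below a given log2 difference between ETX and PBS hearts (x axis) for the 43 tested subunit genes, the 32 assembly factors and regulators, and all 14953 genes tested. The curve of the subunits is steep around 0 and that of the assembly factors is shifted to a median of 0.12.

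In complex II, which feeds electrons into the chain from succinate, 0 of 4 genes passed and the median was -0.05. Its membrane anchor Sdhc was at 10.98, 10.95 and 10.98 in ETX hearts and at 11.21, 11.05 and 11.13 in PBS hearts, without overlap (difference -0.16, limma adjusted p = 0.213). Sdhb, its iron-sulphur protein, lay above PBS in every ETX heart, by 0.09 on average (limma adjusted p = 0.436). Of the 10 measured regulators of mitochondrial biogenesis 1 passed, and was higher in ETX, where 1.14% of all genes tested passed as higher and 2.43% as lower. Esrrb, an orphan nuclear receptor of the ERR family, was at 5.45, 5.34 and 5.31 in ETX hearts and at 4.97, 4.89 and 4.84 in PBS hearts. It rose by 0.46 on the log2 scale, or 1.38-fold (limma adjusted p = 0.021), and kept the call in 2 of the 6 fits without 1 heart (limma adjusted p of 0.0464 to 0.0749). It did not pass when lung markers entered as a covariate (0.0827), without PBS replicates 3 and 9 (0.115), or without PBS replicate 3 and ETX replicates 6 and 7 (0.553), with log2 differences of 0.50, 0.52 and 0.44. Esrra, the ERR family member best known for driving respiratory chain genes in the heart, was 0.17 higher (limma adjusted p = 0.204). Esrrg, the other ERR family member on the list, differed by -0.13 with overlap (limma adjusted p = 0.366). Gabpa and Nrf1 differed by -0.12 and -0.09 with overlap (limma adjusted p of 0.393 and 0.482). Of the 10 regulators 6 lay above 0 and 4 below. Ppargc1a, the coactivator PGC-1 alpha, was at 9.53, 9.22 and 9.61 in ETX hearts and at 9.55, 9.65 and 9.85 in PBS hearts, with overlap and a difference of -0.23 (95% interval -0.51 to 0.04, limma adjusted p = 0.306). The Ppargc1a difference was -0.11 without ETX replicate 7, -0.15 without PBS replicate 12, -0.39 without PBS replicates 3 and 9, and -0.13 with the mean of its clusters.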

How the data were processed

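Total RNA of 6 hearts was hybridised to 1 array each. The deposited values are log2 signals that the authors made with Affymetrix Expression Console and RMA, per the submitters' processing notes, which give no version. RMA corrects background, normalizes quantiles and summarises probes, which compresses differences of dim genes. The sources used here name no build and no filter. Of 35556 clusters 21789 had 1 symbol in a platform annotation table, giving 19938 genes; for genes with several clusters the one with the highest mean was used. Genes with a mean under the lower quartile (3.45) were dropped (14953 stayed). Differences, ETX minus PBS, were fitted by lmFit and eBayes of limma 3.58.1 (two-sided; R 4.3.3), Benjamini-Hochberg adjusted over all genes tested, at a threshold of 0.05. The functions were tested on simulated data. The members, the lists, the alternatives and the naming rule were chosen with earlier results of these data known. Named are the called genes, the isoform pairs, the 3 highest and 3 lowest differences and subunit genes without overlap. Genes of the pathway lists are named where they pass or are the 2 of their list with the smallest p. Of the marker lists, genes that pass are named. Uqcrfs1, Cyc1, Cycs, Atp5a1, Atp5md, Atpif1, Ppargc1a, Ucp1, Tnni3, Mybpc3, Myh6 and Pln were chosen after their values were seen. So were Esrrg, Gabpa, Nrf1, Nppa, Kcna5, Bmp10, Ckm and Tnni2. Figures were drawn with matplotlib 3.10.9.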

Additional observations from a re-analysis of the deposited data

How the results depend on the processing

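Over all genes tested 533 passed. The count was 957 with a trended and robust variance, 909 with genes above the median of gene means, 147 with a score of atrial markers as a covariate and 80 with one of lung markers. It was 94 to 241 with 1 heart left out, 19 without PBS replicates 3 and 9, and 2 without PBS replicate 3 and ETX replicates 6 and 7, a fit added after seeing the data. In the last 2 fits a group has 1 heart, whose spread is taken to be that of the other group. Subunit genes called were 0 in the main analysis and 1, Cox7a1, with arrays centred on their median, with a trended and robust variance and with genes above the median of gene means. In the other alternatives the count was 0, also with current RefSeq symbols. The median of complex IV, -0.0083, was 0.0413 with the lung-marker score and 0.0516 without PBS replicates 3 and 9; it also turned sign with a further quantile normalization (0.0233) and without ETX replicate 7 (0.0193) or PBS replicate 3 (0.0155). That of the ATP synthase, -0.0051, was 0.0239 with the quantile normalization, 0.0185 without PBS replicates 3 and 9 and -0.0251 to 0.0234 without 1 heart. That of complex III, -0.0174, was 0.0029 with the quantile normalization and -0.034 to -0.0099 without 1 heart. In the added fit the log2 ratio difference was -0.3412 for Cox6a2 to Cox6a1, -0.3719 for Cox7a1 to Cox7a2 and 0.0105 for Cox4i2 to Cox4i1. That of Cox8b to Cox8a, -0.02, was -0.2139 with the lung-marker score and -0.2176 without PBS replicates 3 and 9, but 0.0569 in the added fit, 0.082 without ETX replicate 7 and 0.0826 without PBS replicate 12. Of the other pathway genes 1 passed (Esrrb). The count was 2, with Higd1a added, with a trended and robust variance, a further quantile normalization and genes above the median of gene means. It was 0 to 1 without 1 heart, and 0 with the lung-marker score, without PBS replicates 3 and 9 and in the added fit. Cox8a turned from -0.06 to 0.0856 with the lung-marker score and 0.1187 without PBS replicates 3 and 9. Cox4i2, at 0.0048, turned to -0.012 with array weights, -0.0244 with arrays centred on their median, -0.0241 with the atrial-marker score and -0.0083 with the lung-marker score, and ran from -0.0422 to 0.0703 without 1 heart (-0.0018, -0.0117, -0.0135 and -0.0422 among them). The cause of these changes was not tested. No paired analysis was made, because the labels name no pairs of hearts. The groups share no replicate number, which by itself does not show whether hearts were paired.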

Other observations

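Cox7c, a subunit of complex IV, was measured only on 3 clusters that also carry the symbol Gm12338, so it is no member of the set above. It was looked at after the other values were seen. Its brightest cluster was at 12.38, 12.31 and 12.31 in ETX hearts (replicates 6, 7 and 10) and at 12.31, 12.41 and 12.46 in PBS hearts (replicates 3, 9 and 12). The 3 clusters differed by -0.07, -0.06 and -0.07 on the log2 scale, with overlap between the groups in each. Among the PBS hearts Cox7c was lowest in replicate 3 and highest in replicate 12, as Atp5md was.

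A cluster annotated as COX2, the mitochondrially encoded subunit 2 of complex IV, was also chosen after its values were seen. It was at 12.75, 12.73 and 12.71 in ETX hearts and at 12.66, 12.77 and 12.87 in PBS hearts, so the ETX hearts lay inside the PBS range (difference -0.04, 95% interval -0.21 to 0.13, limma adjusted p = 0.811). Being lowest in PBS replicate 3 and highest in PBS replicate 12 among the PBS hearts was seen for 9 of the 43 subunit genes (20.9%), against 25.8% of the genes with a mean of at least 11 and 15.1% of all genes tested.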
